A study of Homo sapiens with 4 samples.

Results

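The 10 genes described here encode the machinery of store-operated calcium entry and the potassium channels that sustain it in lymphocytes. They were picked by symbol from the 26733 genes of the deposited expression table, as genes of this known pathway; their choice was made with earlier results of these data known. ORAI1, ORAI2 and ORAI3 are the channel subunits, STIM1 and STIM2 the calcium sensors, ITPR1, ITPR2 and ITPR3 the release channels of the endoplasmic reticulum, and KCNA3 and KCNN4 the potassium channels. All 10 had a row. Expression was measured by sequencing of polyadenylated RNA in Jurkat cells, an established human line of T-cell acute lymphoblastic leukaemia (T-ALL). In 2 libraries the cells were treated with GNE987, labelled 25 nmol with no volume given, for 24 h, and in 2 libraries the cells were not treated; no vehicle is named for them. GNE987 is a degrader that tethers BET bromodomain proteins, which read acetylated chromatin, to the VHL ubiquitin ligase. All libraries came from this 1 line, and the labels do not say whether replicates were cultured separately. The p-values below therefore describe the spread among these libraries, which may be technical.

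A T cell whose antigen receptor is engaged makes inositol trisphosphate (IP3), which opens ITPR channels and empties calcium from the endoplasmic reticulum. STIM proteins sense the emptied store and open ORAI channels in the plasma membrane, and the calcium that enters activates calcineurin and the NFAT transcription factors. KCNA3, a voltage-gated channel, and KCNN4, a calcium-activated one, let potassium out and so keep the membrane voltage that draws calcium in. Jurkat cells have long served to study this calcium current.

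Libraries held between 16041022 and 18938465 counts, at which 3 counts equal 0.135 to 0.217 CPM, the count of a gene relative to its library total after scaling with TMM factors. The chi-square between replicate libraries, per degree of freedom, was 4.55 for the treated and 34.0 for the untreated pair, so the untreated libraries stood further apart. The 10 markers of T cells summed to between 2604 and 2765 CPM in untreated and between 1452 and 1587 CPM in treated cells, and 8 of them fell and 1 rose. Of 6 myeloid markers 5 were tested, of which 3 rose and 0 fell. MPO and ITGAM, the highest of them in the treated libraries, did not pass (adjusted p = 0.0702 and 0.0531). Among all 15910 genes tested 34.4% rose and 37.2% fell, at an adjusted p below 0.05 as for the markers. The myeloid sum was 0.584 CPM in untreated replicate 1, 29.8 CPM in untreated replicate 2 and 142 to 147 CPM in the treated libraries, with CD33 at 0 in the treated libraries. B-cell markers, nearly all of it CD79A, summed to 41.5 and 51.6 CPM in untreated and 97.8 and 107 CPM in treated cells, with 1 of 1 tested higher. Fibroblast markers summed to 2.24 and 2.52 CPM in untreated and 9.19 and 9.06 CPM in treated cells, with 1 of 2 tested higher, and the 3 epithelial markers had no row. The part of these shifts in the results below was not tested, and in bulk RNA fewer cells of a type and less RNA per cell cannot be told apart.

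Within this machinery 1 channel gene and 1 sensor gene rose, and both potassium channels fell. ORAI1 and STIM2 rose, and ORAI2, STIM1, ITPR3, KCNA3 and KCNN4 fell. ITPR1 and ITPR2 did not pass the test, and ORAI3 was too low to be tested. Thus 7 of 9 tested genes changed, 2 higher and 5 lower, at an adjusted p below 0.05 (edgeR quasi-likelihood test, Benjamini-Hochberg over all genes tested). Among all 15910 genes tested 71.6% changed, 34.4% higher and 37.2% lower, so the count among these genes is near the background. Their median log2 fold change was -0.47, against -0.03 over all genes tested. Scaling by library size alone moved the median of all genes to -0.41 and gave 1 gene higher and 6 lower here, against 4103 higher and 7164 lower over all genes. Without GNE987 replicate 1 the median of the 9 was -0.42, against -0.04 over all genes. Without GNE987 replicate 2 it was -0.38, against -0.04. The spread then came from the untreated pair alone. Most calls among these genes did not hold in these fits, and fewer passed over all genes as well. Without untreated replicate 1 the median of the 9 was -0.46, against -0.03 over all genes, and without untreated replicate 2 it was -0.39, against 0.01.

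**Figure D1:**
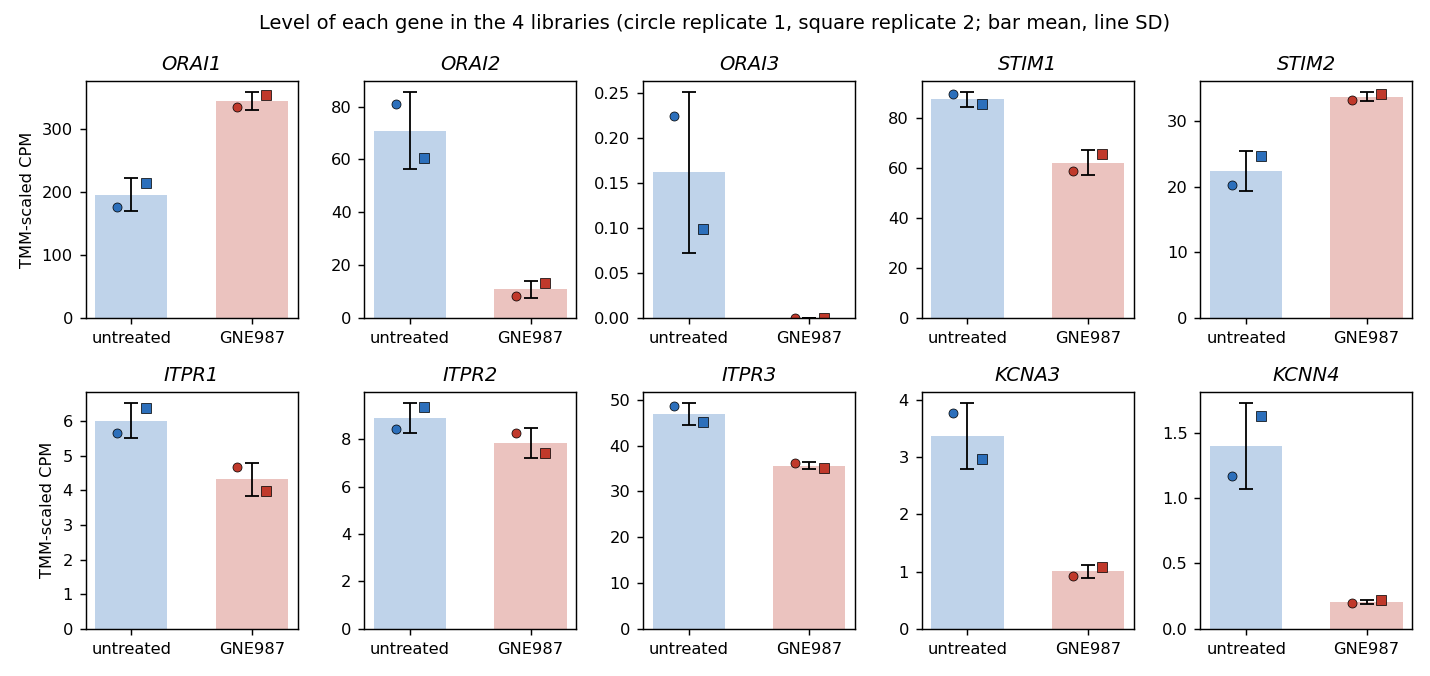
TMM-scaled CPM of each gene in the 2 untreated and 2 GNE987 libraries; bars give the mean, lines the SD, circles replicate 1 and squares replicate 2, and each panel has its own axis. ORAI1 and STIM2 are higher in both treated libraries, and ORAI2, KCNA3 and KCNN4 are far lower in both.

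ORAI1, the pore subunit of the calcium release-activated channel, was the most abundant gene of the set and was higher with GNE987. All levels here are relative to the library, so a rise or fall need not be one in RNA per cell, which was not measured. It had 177 CPM in untreated replicate 1, 214 CPM in untreated replicate 2, 334 CPM in GNE987 replicate 1 and 354 CPM in GNE987 replicate 2. The groups did not overlap, and untreated replicate 2 was the nearer of the untreated libraries to the treated ones. The mean went from 195 ± 26.2 to 344 ± 13.9 CPM (SD, n = 2), a 1.76-fold difference and a log2 fold change of 0.82 ± 0.15 (SE, adjusted p = 0.00546). The call was lost without GNE987 replicate 1 (adjusted p = 0.0562) and without GNE987 replicate 2 (0.0679), and with library size alone the log2 fold change was 0.45. ORAI1 (ENSG00000276045) lies on chromosome 12 from 121626550 to 121642677 (GRCh38, plus strand), and no other annotated gene overlaps it.

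ORAI2, a paralogous subunit that lowers the current when it joins ORAI1 in a channel, went the other way. It had 81.1 and 60.6 CPM in untreated replicates 1 and 2, and 8.53 and 13.2 CPM in GNE987 replicates 1 and 2. Every treated library was below every untreated one by a wide margin. The mean fell from 70.9 ± 14.5 to 10.9 ± 3.29 CPM, a 6.52-fold difference and a log2 fold change of -2.71 ± 0.26 (adjusted p = 0.000842). This fall passed the test in every alternative run. ORAI2 (ENSG00000160991) lies on chromosome 7 from 102433106 to 102456821, plus strand. Its 3′ end shares 584 exonic bases, 5.3% of its exonic length, with ALKBH4 on the opposite strand, a demethylase gene that had 709 and 496 counts in untreated replicates 1 and 2 and 92 and 101 counts in the treated libraries. It fell too (-2.08 ± 0.20, adjusted p = 0.00087). The library kit does not mark strand, and the part of ALKBH4 reads in the ORAI2 value was not tested. At the other end an antisense gene, AC073517.1, spans the start of ORAI2 without sharing exonic bases, and it had 0 and 8 counts in untreated replicates 1 and 2 and 22 and 19 counts in the treated libraries. AC073517.1 rose (2.84 ± 0.98, adjusted p = 0.0442), opposite to ORAI2.

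ORAI3, the remaining subunit, was barely detected. It had 5 and 2 counts in untreated replicates 1 and 2 and 0 counts in both treated libraries. With the treated group set to a floor of 3 counts, the ratio of untreated to treated was 1.59. That ratio takes the few untreated counts as exact, so it is not a lower bound, and a fall was not established. ORAI3 did not pass the filter for the test. It lies on chromosome 16 from 30949066 to 30956461 and shares 52.9% of its exonic bases with a processed transcript on the same strand, AC135048.1.

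Per unit of length, ORAI1 was therefore nearly the whole of the family in treated cells. By the deposited FPKM, which divides fragments by gene length and library total, ORAI1 stood at 78.2 and 92.0 in untreated replicates 1 and 2 and at 146 and 155 in the treated libraries, and ORAI2 at 7.32 and 5.31 and at 0.758 and 1.18. The FPKM of ORAI1 was 10.7 and 17.3 times that of ORAI2 in untreated replicates 1 and 2, and 192 and 132 times in GNE987 replicates 1 and 2. Its share of the summed ORAI FPKM went from 92.9% ± 2.23 to 99.4% ± 0.167 (SD, n = 2). The FPKM of ORAI2 rests on a length of 11103 bases, the union of the exons of 10 annotated transcripts. That of ORAI1 rests on 2262 bases, so the FPKM of ORAI2 is lowered relative to it. By CPM without length, the ORAI1 share was 73.2% in untreated and 97.0% in treated cells. The summed FPKM of the family was 85.6 and 97.4 in untreated cells and 146 and 156 in treated cells. These shares were not tested, since 2 against 2 libraries cannot reach a p of 0.05 in an exact permutation test.

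The STIM sensors changed in opposite directions. STIM1, which gates ORAI channels once the store is emptied, had 89.4 and 85.4 CPM in untreated replicates 1 and 2, and 58.6 and 65.7 CPM in GNE987 replicates 1 and 2. The treated libraries were lower with no overlap. Its mean was 87.4 ± 2.83 CPM in untreated and 62.1 ± 4.97 CPM in treated cells (SD, n = 2), and it fell with a log2 fold change of -0.49 ± 0.12 (adjusted p = 0.0138). STIM2, which responds to smaller losses of stored calcium and helps keep the resting level, had 20.3 and 24.6 CPM in untreated replicates 1 and 2, and 33.2 and 34.1 CPM in GNE987 replicates 1 and 2. The groups did not overlap here either, with the treated libraries higher. Mean CPM rose from 22.4 ± 3.04 to 33.6 ± 0.693, with a log2 fold change of 0.58 ± 0.14 (adjusted p = 0.0152).

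Both changes were small and depended on scaling. With upper-quartile factors STIM1 no longer passed (-0.29, adjusted p = 0.0797), and with library size alone STIM2 no longer passed (0.22, adjusted p = 0.258). Neither passed without GNE987 replicate 1 (adjusted p = 0.156 for STIM1 and 0.0964 for STIM2) or without GNE987 replicate 2 (0.0838 and 0.11). No scaling turned either direction. A ratio within a library does not depend on scaling: the FPKM of STIM1 was 4.27 and 3.36 times that of STIM2 in untreated replicates 1 and 2, and 1.71 and 1.86 times in GNE987 replicates 1 and 2. STIM1 thus remained the more abundant sensor in every library, with a share of 79.1% ± 2.78 in untreated and 64.1% ± 1.37 in treated cells (SD, n = 2).

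**Figure D2:**
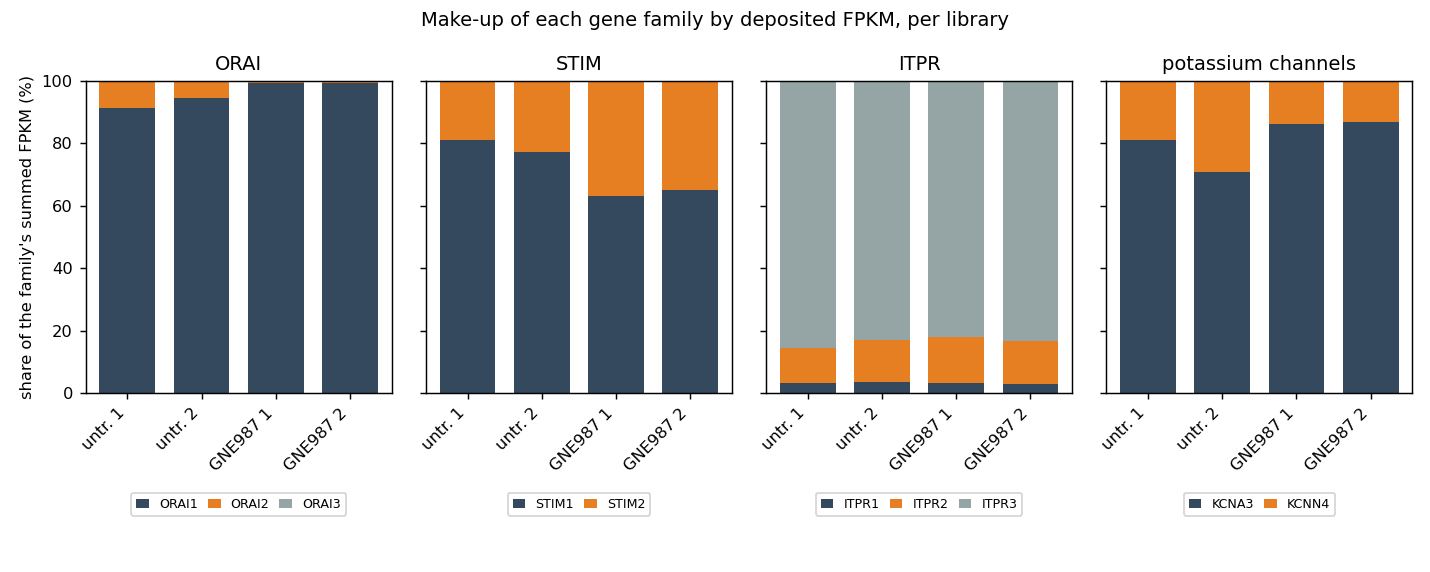
Share (%) of each gene in the summed FPKM of its family, in each of the 4 libraries; one stacked bar per library. ORAI1 takes 91.4% and 94.5% of the ORAI sum in untreated libraries and over 99.2% in treated ones, the STIM1 share drops from 81.0% and 77.1% to 63.1% and 65.1%, and ITPR3 stays between 82.2% and 85.5%.

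STIM1 (ENSG00000167323) lies on chromosome 11 from 3854527 to 4093210 and STIM2 (ENSG00000109689) on chromosome 4 from 26857678 to 27025381, on the plus strand in each case. An antisense gene, AC106047.1, lies within the span of STIM2 from 26859806 to 26860599, on the opposite strand and upstream of the start that RefSeq lists, so that these transcripts run apart. AC106047.1 had 2 and 18 counts in untreated replicates 1 and 2, and 68 and 49 counts in GNE987 replicates 1 and 2. It rose with STIM2, with a log2 fold change of 3.05 ± 0.80 (adjusted p = 0.0185), which was 2.17 without untreated replicate 1 and 5.42 without untreated replicate 2. Leaving out GNE987 replicate 1 gave an adjusted p of 0.119, and leaving out GNE987 replicate 2 gave 0.0934. No exonic bases are shared between AC106047.1 and STIM2. At the start of STIM1, the antisense gene AC090587.1 shares 132 exonic bases with it, and AC090587.2, on the same strand, shares 43. Neither passed the test, with log2 fold changes of -0.81 ± 0.51 (adjusted p = 0.195) and 0.20 ± 0.42 (adjusted p = 0.686).

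Upstream sequences are shown for the sensors, which diverged, and for ORAI2 and KCNA3, which fell and have a stretch upstream that is free of annotated exons. The listed windows of KCNN4 and ITPR3, which fell too, have none. Each is the part of the 250 bases before the RefSeq start (GRCh38.p14) that no annotated exon covers, read 5′ to 3′ on the gene's strand. Capitals mark the GC box GGGCGG and the CCAAT box CCAAT on either strand.
STIM2, the 91 bases between AC106047.1 and the next exon of STIM2, chr4:26860600-26860690, plus strand: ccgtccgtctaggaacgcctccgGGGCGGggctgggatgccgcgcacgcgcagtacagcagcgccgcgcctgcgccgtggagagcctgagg
STIM1, chr11:3855510-3855701, plus strand: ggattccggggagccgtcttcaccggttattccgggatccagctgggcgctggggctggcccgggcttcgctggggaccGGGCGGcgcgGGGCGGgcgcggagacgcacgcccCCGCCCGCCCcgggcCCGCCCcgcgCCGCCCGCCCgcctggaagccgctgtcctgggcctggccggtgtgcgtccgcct
ORAI2, chr7:102433356-102433529, plus strand: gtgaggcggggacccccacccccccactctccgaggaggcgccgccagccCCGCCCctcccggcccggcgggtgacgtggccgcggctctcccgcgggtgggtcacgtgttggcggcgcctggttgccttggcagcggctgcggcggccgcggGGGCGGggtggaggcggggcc
KCNA3, chr1:110675034-110675190, minus strand: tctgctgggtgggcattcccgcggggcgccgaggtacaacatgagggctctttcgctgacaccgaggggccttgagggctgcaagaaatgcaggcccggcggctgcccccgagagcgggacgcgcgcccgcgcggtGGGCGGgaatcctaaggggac

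GC boxes stood in all 4 printed stretches, 7 in that of STIM1, 2 in that of ORAI2 and 1 each in those of STIM2 and KCNA3. The printed stretches were 70.7% (KCNA3) to 82.2% (ORAI2) G or C, where the median of all RefSeq promoters over 250 bases was 58.0%. Windows of other starts differed. Another exon-free KCNA3 stretch, of 250 bases, was 30.8% G or C with 0 GC boxes. It lies at chr1:110671776-110672025, past the annotated 3′ end of this minus-strand gene at 110672465. It is therefore not upstream of the gene as annotated here and is not comparable with the printed stretch. Another STIM1 window was 56.0% G or C, also with 0 GC boxes. Over the full 250-base windows GGGCGG on either strand was found in 42.6% of all 35116 RefSeq promoters and in at least 1 window of 6 of the 8 members listed. CCAAT was in 32.0% of all promoters and in at least 1 window of 3 members, and TATAAA in 10.7% and in 0 members. STIM1 and KCNA3 have several windows, so these counts per member cannot be compared with the shares per promoter. The CCAAT of KCNA3 lies in a window inside its own exon (chr1:110673455-110673704). STIM2 was the only printed gene that rose, so these letters cannot show whether genes that rose differ from those that fell. ORAI1 and ITPR2 were not among the entries.

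Of the 3 IP3 receptors, only ITPR3 passed the test. ITPR3, the most abundant of them, had 48.6 and 45.2 CPM in untreated replicates 1 and 2, and 36.1 and 35.1 CPM in GNE987 replicates 1 and 2. Treated libraries were lower without overlap, and mean CPM fell from 46.9 ± 2.40 to 35.6 ± 0.679, with a log2 fold change of -0.40 ± 0.11 (adjusted p = 0.0253). This call was fragile: it was lost with RLE factors (adjusted p = 0.0574), with upper-quartile factors (0.18), with a filter of 10 CPM in 2 libraries (0.102), with DESeq2 (0.0712), without GNE987 replicate 1 (0.152) and without GNE987 replicate 2 (0.175). In the authors' deposited table ITPR3 had an adjusted p of 0.0712. The 3′ end of ITPR3 (ENSG00000096433, chromosome 6 from 33620365 to 33696574, plus strand) shares 1025 exonic bases, 10.4% of its exonic length, with UQCC2 on the opposite strand. UQCC2, an assembly factor of respiratory complex III, had 1759 and 1336 counts in untreated replicates 1 and 2 and 115 and 111 in the treated libraries, where ITPR3 had 1082, 915, 550 and 485 counts in the same order. The log2 fold change of UQCC2 was -3.22 ± 0.15 (adjusted p = 0.000292). Reads from the shared bases cannot be assigned by strand, and their part in the fall of ITPR3 was not tested.

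ITPR1 and ITPR2, the other release channels, were expressed at low levels and did not pass. ITPR1 had 5.66 and 6.37 CPM in untreated replicates 1 and 2, and 4.66 and 3.99 CPM in the treated libraries (log2 fold change -0.47 ± 0.25, adjusted p = 0.132). With library size alone it passed, at -0.84 (adjusted p = 0.0313). ITPR2 had 8.44 and 9.33 CPM in untreated replicates 1 and 2, and 8.27 and 7.39 CPM in the treated libraries (-0.18 ± 0.20, adjusted p = 0.437), and its sign turned with upper-quartile factors (0.0167). The treated libraries lay below the untreated ones for both genes, by little in the case of ITPR2. By FPKM the 3 receptors kept their proportions: ITPR3 made up 84.3% ± 1.65 of their sum in untreated and 82.9% ± 0.937 in treated cells (SD, n = 2), ITPR2 12.4% and 14.1%, and ITPR1 3.30% and 3.05%. The FPKM of ITPR1 rests on a length of 32454 bases, the union of the exons of 56 annotated transcripts, which lowers it relative to the others. An antisense gene that shares 444 of these bases, AC018816.1, had 15 and 28 counts in untreated replicates 1 and 2 and 2 and 1 counts in the treated libraries, where ITPR1 had 126, 129, 71 and 55 counts in the same order. ITPR1 lies on chromosome 3 from 4493345 to 4847840 and ITPR2 on chromosome 12 from 26336515 to 26833198.

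The potassium channels, already low in untreated cells, fell, and KCNN4 reached the floor of 3 counts per library. KCNA3 had 84 and 60 counts in untreated replicates 1 and 2, and 14 and 15 counts in GNE987 replicates 1 and 2. This equals 3.77 and 2.96 CPM against 0.919 and 1.09 CPM, with no overlap. From 3.37 ± 0.572 CPM the mean fell to 1.00 ± 0.119 CPM, and the log2 fold change was -1.74 ± 0.36 (adjusted p = 0.00807). KCNN4 had 26 and 33 counts in untreated replicates 1 and 2, and 3 counts in each treated library. It fell as well (adjusted p = 0.00733); since the treated counts were at the floor, its size is given as a ratio of summed counts per effective library size, 6.71-fold with a 95% exact binomial interval of 2.91 to 19.0 that covers counting error only. Without GNE987 replicate 1 the adjusted p was 0.0656 for KCNA3 and 0.0645 for KCNN4, and without GNE987 replicate 2 it was 0.0521 and 0.0592. The share of KCNA3 in their summed FPKM was 81.1% and 70.7% in untreated replicates 1 and 2, and 86.1% and 86.9% in the treated libraries. KCNA3 (ENSG00000177272) is a gene of 1 exon on chromosome 1 from 110672465 to 110675033, and KCNN4 (ENSG00000104783) lies on chromosome 19 from 43766533 to 43781261, each on the minus strand and without an overlapping gene.

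**Figure D3:**
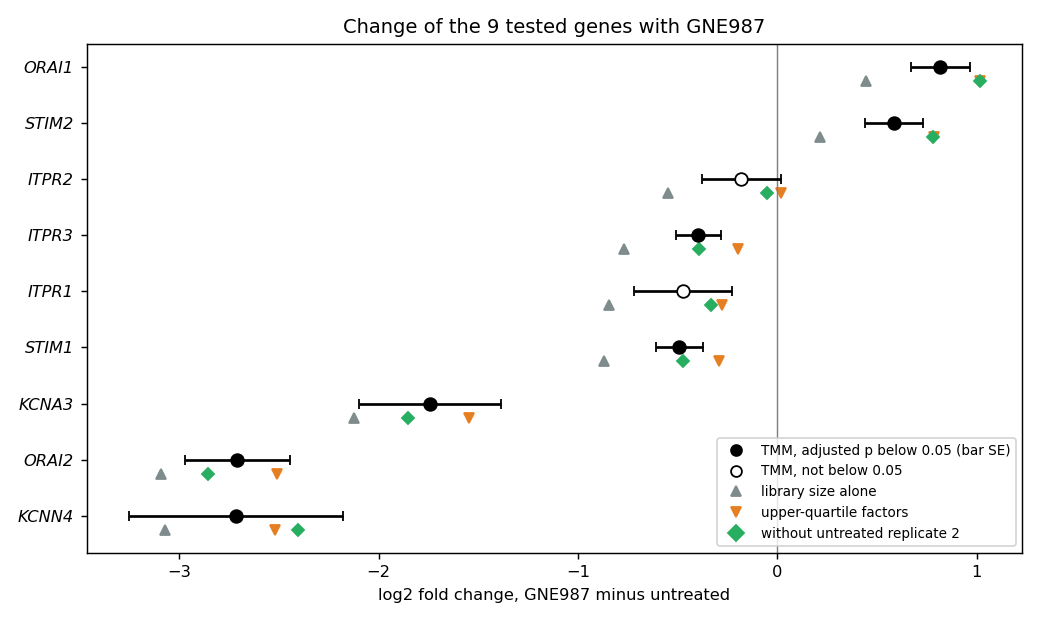
Log2 fold change (GNE987 minus untreated) of the 9 tested genes with its standard error, filled where the adjusted p was below 0.05; smaller symbols give the value under 3 other settings. ORAI1 and STIM2 lie above 0 and ORAI2, STIM1, ITPR3, ITPR1, KCNA3 and KCNN4 below 0 in every setting shown, while ITPR2 crosses 0 with upper-quartile factors.

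Set side by side per length, the levels spanned from ORAI1 to the nearly silent ORAI3, and GNE987 changed the order. In untreated cells the mean FPKM was 85.1 for ORAI1, 12.1 for STIM1, 6.31 for ORAI2, 4.69 for ITPR3, 3.20 for STIM2, 1.30 for KCNA3, 0.688 for ITPR2, 0.404 for KCNN4, 0.183 for ITPR1 and 0.0607 for ORAI3. In treated cells it was 150.1 for ORAI1, 8.61 for STIM1, 4.81 for STIM2, 3.57 for ITPR3, 0.967 for ORAI2, 0.607 for ITPR2, 0.386 for KCNA3, 0.132 for ITPR1, 0.0601 for KCNN4 and 0 for ORAI3. STIM2 moved above ITPR3, and ORAI2 dropped below both. The values of neighbours in each order did not overlap between the libraries of a group.

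For most of the genes that changed, the second untreated library was closer to the treated mean than the first. With untreated replicate 1 set to 0% and the treated mean to 100%, it stood at 22.2% for ORAI1, 29.2% for ORAI2, 14.7% for STIM1, 32.2% for STIM2, 26.2% for ITPR3 and 29.2% for KCNA3. KCNN4, at -48.1%, lay on the far side, as did ITPR1 (-53.5%) and ITPR2 (-147%), which did not pass. Untreated replicate 1 enters both ends of this measure, so it is a description only. The measure was not computed over all genes tested, so it cannot be called particular to these genes.

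Other genes of calcium handling were followed in 6 lists of 105 genes, of which 103 had a row and 90 were tested. Of these 26 rose and 41 fell, or 67 of 90, against 71.6% of all genes tested (34.4% higher and 37.2% lower); with library size alone 17 rose and 49 fell. Their median log2 fold change was -0.44. Without GNE987 replicate 1 it was -0.44 and without GNE987 replicate 2 it was -0.43, each against -0.04 over all genes tested. Fewer genes passed then, here and over all genes. The plot of the lists shows that each held genes of either direction.

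**Figure D4:**
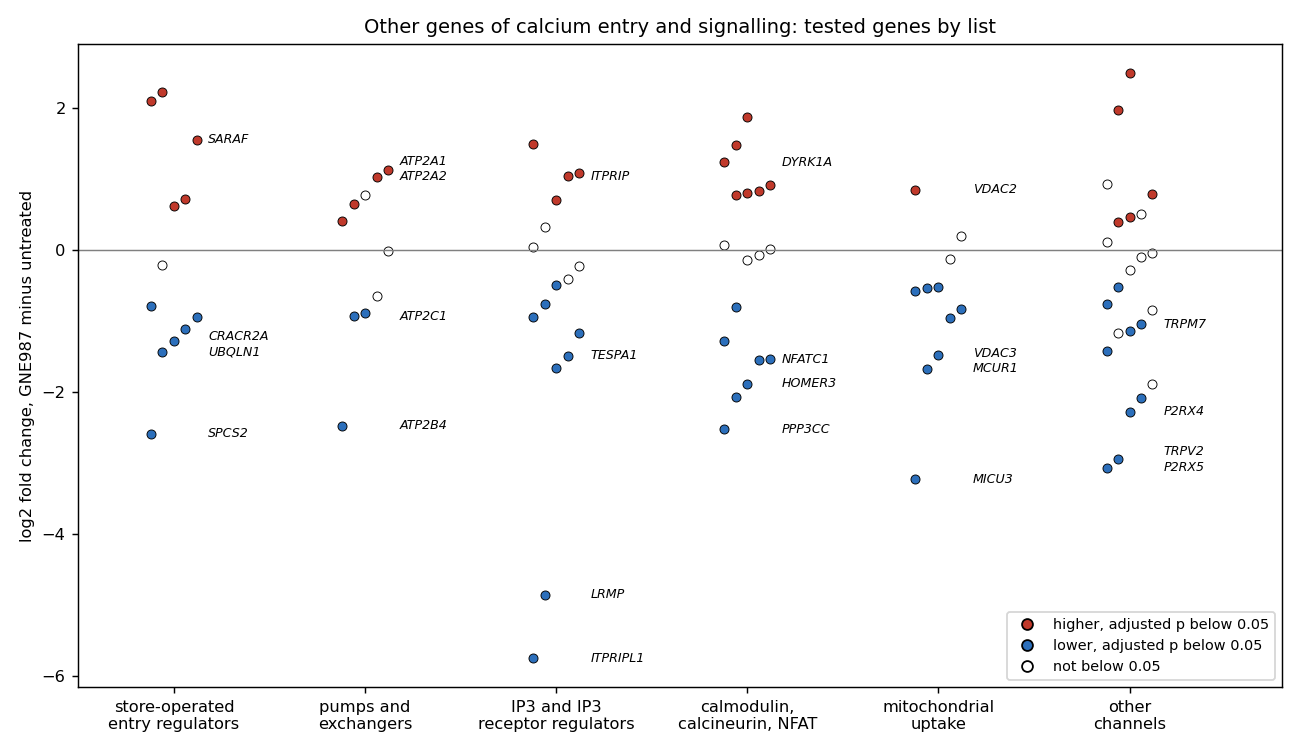
Log2 fold change (GNE987 minus untreated) of the 90 tested genes of 6 lists, one point per gene, red where higher and blue where lower at an adjusted p below 0.05; named points are the up to 4 with the smallest adjusted p in each list. ITPRIPL1 lies lowest (-5.75), and in the mitochondrial list 8 of 11 genes are lower.

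Among regulators of store-operated entry, 5 of 12 tested genes rose and 6 fell, with a median log2 fold change of -0.49. SARAF, an endoplasmic reticulum protein that switches off STIM1 and so prevents overfilling, had 91.5 and 131 CPM in untreated replicates 1 and 2 and rose to 322 and 332 CPM (log2 fold change 1.56 ± 0.20, adjusted p = 0.00194). CRACR2A, a calcium-binding protein that steadies the complex of ORAI1 and STIM1, fell by 1.28 ± 0.15 on the log2 scale, from a mean of 22.8 to 9.38 CPM. CRACR2B, of the same list and named after its values were seen, went the other way. Its mean rose from 11.3 to 52.6 CPM (2.23 ± 0.40, adjusted p = 0.00537). Groups did not overlap for SARAF, CRACR2A or CRACR2B. UBQLN1, a ubiquilin, fell from 139.6 to 51.7 CPM (-1.43 ± 0.14), and SPCS2, a signal peptidase subunit, from 83.0 to 13.8 CPM (-2.58 ± 0.14). Pumps and exchangers rose in 4 of 10 cases and fell in 3, with a median of 0.20 that was -0.16 with library size alone. ATP2A2 and ATP2A1, pumps that refill the endoplasmic reticulum, rose with log2 fold changes of 1.04 ± 0.14 and 1.13 ± 0.23. The plasma membrane pump ATP2B4 fell from 152 and 131 CPM to 26.5 and 24.6 CPM (-2.47 ± 0.14), and the Golgi pump ATP2C1 fell as well (-0.93 ± 0.13). ATP2A3, the reticulum pump of blood cells and the most abundant of the list in every library, was named after its values were seen; it went from 782 to 1040 CPM (0.41 ± 0.14, adjusted p = 0.0377), but with library size alone its log2 fold change was 0.04 (adjusted p = 0.773), and without GNE987 replicate 1 or 2 the adjusted p was 0.167 and 0.208. Fewer genes of both lists passed without GNE987 replicate 1, ATP2A1 being among those lost, and without GNE987 replicate 2. The medians of entry regulators and pumps were -0.44 and 0.03 without GNE987 replicate 1. They were -0.54 and 0.33 without GNE987 replicate 2. With library size alone 3 entry regulators rose and 6 fell, and 2 pumps rose and 4 fell.

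Genes that make IP3 or act on its receptors rose in 4 of 16 cases and fell in 8, with a median of -0.44. PLCG1, the phospholipase that makes IP3 below the T-cell receptor, had 186 and 184 CPM in untreated replicates 1 and 2, and 196 and 188 CPM in the treated libraries (0.05 ± 0.12, adjusted p = 0.703); it was named after its values were seen. ITPRIPL1, a relative of the IP3 receptor-interacting protein, fell from 59.6 and 48.6 CPM to 0.853 and 1.16 CPM (-5.75 ± 0.23, adjusted p = 0.000292), whereas ITPRIP itself rose (1.04 ± 0.14). LRMP, a reticulum membrane protein of lymphoid cells, fell from 7.36 and 4.94 CPM to 0.263 and 0.145 CPM, which is 4 and 2 counts, a ratio of 30.04 with an interval of 13.6 to 82.6 (95%, exact binomial, counting error only). Its log2 fold change was -5.34 without GNE987 replicate 1 and -4.52 without GNE987 replicate 2. TESPA1, a thymocyte protein that links the T-cell receptor to IP3 receptors, fell from 69.1 to 24.7 CPM (-1.48 ± 0.12).

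Downstream of calcium entry, the genes changed in either direction. The list of calmodulin, calcineurin and NFAT genes held 7 that rose and 7 that fell among 18 tested, with a median of -0.02 that was 0.07 with RLE and 0.18 with upper-quartile factors. CALM2 and CALM3, which encode the calcium sensor calmodulin, rose with log2 fold changes of 0.83 ± 0.15 and 0.93 ± 0.18. CALM2 did not pass when GNE987 replicate 1 was left out (adjusted p = 0.0594) or when GNE987 replicate 2 was (0.0616), nor CALM3 in the latter case (0.0687). NFATC1, NFATC2 and NFATC3 fell with log2 fold changes of -1.53 ± 0.16, -2.07 ± 0.27 and -1.27 ± 0.15 and adjusted p-values of 0.000977, 0.00214 and 0.00165. NFAT5, which responds to osmotic stress and lacks calcineurin control, rose (1.87 ± 0.24). PPP3CC, a catalytic subunit of calcineurin, fell from 22.2 to 3.84 CPM (-2.52 ± 0.19). Of its other subunits the catalytic PPP3CB fell (-1.55 ± 0.25, adjusted p = 0.0038), whereas the catalytic PPP3CA (0.78 ± 0.21, adjusted p = 0.0198) and the regulatory PPP3R1 (0.81 ± 0.12, adjusted p = 0.00309) rose. The rise of PPP3CA was lost with library size alone (adjusted p = 0.169), when GNE987 replicate 1 was left out (0.0501) and when GNE987 replicate 2 was (0.131). The change of PPP3CB was -1.88 and -1.29 in these last cases, in that order. HOMER3, a scaffold protein, fell from 28.8 to 7.81 CPM (-1.88 ± 0.15). DYRK1A, a kinase that drives NFAT out of the nucleus, rose from 57.8 to 136.4 CPM (1.24 ± 0.14). CALM2, CALM3, PPP3CA, PPP3CB, PPP3R1, NFATC2, NFATC3 and NFAT5 were named after their values were seen.

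Genes of mitochondrial calcium uptake fell in 8 of 11 cases and rose in 1, with a median of -0.57, where 37.2% of all genes tested fell and 34.4% rose. With upper-quartile factors 6 fell and 2 rose. MCUR1, a regulator of the uniporter, fell from 84.5 and 64.5 CPM to 24.5 and 22.4 CPM (-1.67 ± 0.17, adjusted p = 0.000974). MICU3, another regulator, fell from 63 and 49 counts to 6 and 2 counts (adjusted p = 0.00399), a ratio of 9.56 per effective library size with a 95% exact binomial interval of 4.69 to 22.7 for counting error only. Its log2 fold change was -4.12 without GNE987 replicate 1 and -2.72 without GNE987 replicate 2. Of the outer membrane channels VDAC3 fell (-1.48 ± 0.14) and VDAC2 rose (0.86 ± 0.13). Other lymphocyte channels rose in 5 of 23 cases and fell in 9, with a median of -0.52. P2RX5 and P2RX4, ATP-gated cation channels, fell with log2 fold changes of -3.06 ± 0.21 and -2.28 ± 0.20. So did TRPV2 (-2.94 ± 0.28) and the channel kinase TRPM7 (-1.04 ± 0.13). P2RX5 was at 24.7 and 20.3 CPM in untreated replicates 1 and 2, and at 2.49 and 2.90 CPM in the treated libraries. Without GNE987 replicate 1 the median was -0.57 for mitochondrial genes and -0.58 for the other channels. Without GNE987 replicate 2 it was -0.58 and -0.47. Fewer genes of both lists passed in these fits, with VDAC2 lost in the latter. With library size alone 2 of the other channels rose and 12 fell.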

How the data were processed

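The authors deposited whole-number counts per gene and library. Beside them, per the file headers and values, stood a normalized signal (counts over a constant of each library), FPKM, and the authors' log2 fold change with p-values. HISAT2 2.2.0 and hg38 are named in the submitters' processing notes; which counter, annotation and strand option were used is not given in the sources here. The length behind the deposited FPKM was within 5% of the GENCODE 29 exon union for 100.0% of genes with 20 counts or more, and all 26733 identifiers matched that release. The TruSeq kit named in the labels does not mark strand.

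Genes were filtered with filterByExpr (minimum count 10, minimum total 15), leaving 15910, and scaled by TMM. They were passed to edgeR 4.0.16 (R 4.3.3, quasi-likelihood F test) with 2 residual degrees of freedom. The steps were also run on simulated counts in which few genes changed and all libraries shared a common dispersion. These data differ in both respects, so that run does not give error rates for them. The standard error is the log2 fold change divided by the square root of F. Adjusted p-values are Benjamini-Hochberg over all genes tested, with a threshold of 0.05. Ratios of low counts have 95% exact binomial intervals (scipy). Alternatives were other scalings, other filters, DESeq2 1.42.0, robust estimation, a replicate block and each library left out with the tested genes kept. Members and lists were chosen with earlier results of these data known. The text names all members and, per list, up to 4 called genes with the smallest adjusted p; others are marked. Listed genes without a row were not analysed here.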

Additional observations from a re-analysis of the deposited data

How the results depend on the processing

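Leaving out a treated library cost the most calls. Over the 4 libraries left out in turn, the genes called ranged from 6070 to 12921 of all tested, from 1 to 7 among the members and from 39 to 71 among the pathway genes. By list they ranged from 5 to 11 for entry regulators, 3 to 7 for pumps, 3 to 10 for mitochondrial uptake and 9 to 16 for other channels. Log2 fold changes ranged from 0.68 to 1.01 for ORAI1, -0.58 to -0.41 for STIM1, 0.45 to 0.78 for STIM2, -0.42 to -0.34 for ITPR3, -1.87 to -1.56 for KCNA3 and -2.93 to -2.40 for KCNN4, each passing only with both treated libraries. With upper-quartile factors STIM1 (-0.29) and ITPR3 (-0.20) no longer passed and ITPR2 turned sign (0.0167). With RLE factors ITPR3 did not pass (-0.30). Library size alone lost STIM2 (0.22), brought ITPR1 past the threshold (-0.84) and turned PLCG1 (-0.32). Testing without a filter lost STIM2 (0.44) and turned PLCG1 (-0.0942). A filter of 10 CPM left 4 members called of 5 tested and lost ITPR3 (-0.22), and DESeq2 lost it too (-0.40). Robust estimation changed no call among the members. By CPM without length, the ORAI1 share was 97.0% in treated and 73.2% in untreated cells, that of ITPR3 74.6% and 75.9%, and that of KCNA3 in treated cells 82.8%. Same-numbered libraries did not deviate together (r = -0.00389, 2 pairs); with a replicate block 9801 genes were called, 61 of the pathway genes and 6 members, ITPR3 being lost (-0.40, adjusted p = 0.055). ATP2A3 was lost with the block as well (adjusted p = 0.0601). The treated counts of KCNN4 and ORAI3, at or below 3 per library, limit what can be said of their size. With 2 libraries a group and no separate cultures named, differences between cultures were not measured.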
